A study of Rattus norvegicus with 9 samples.

Results

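MBD3 regions that recurred only in sham-operated rats were examined: places with an MBD3 peak in at least 2 of 3 sham rats and in none of 4 stimulated rats. Peaks of the 7 lists that shared at least 1 bp were merged into 176202 regions on chromosomes 1 to 20 and X, and 1411 of these (0.801%) met the rule. The regions were thus chosen by the presence and absence of called peaks, which are given here as a description. MBD3 had been profiled by chromatin immunoprecipitation and sequencing in male Sprague-Dawley rats, in tissue that pooled the entorhinal, perirhinal and piriform cortices with the amygdala. Sham rats 1 to 3 carried implanted electrodes and received no current. Stimulated rats 1 to 4, numbered 5, 11, 12 and 14 by the submitters, received current in the lateral amygdala for 20 min to evoke status epilepticus, which was ended with diazepam at 20 mg/kg. All rats were killed 14 days after stimulation, and each list comes from a separate animal. The tissue mixes many cell types, so a change in the cells present and a change of binding within a cell type cannot be told apart. The effects of stimulation cannot be told apart either from those of diazepam, of the input library or of depth, which all followed the grouping.

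MBD3 is a subunit of NuRD, a complex that joins a nucleosome remodelling ATPase of the CHD family with the histone deacetylases HDAC1 and HDAC2. It resembles MBD2, the subunit that takes its place in other NuRD complexes, but mammalian MBD3 binds methylated CpG weakly. In neurons and other cells NuRD is known for acting at promoters and enhancers, where it limits or adjusts transcription.

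The lists differed in depth and length before any region was chosen. Filtered ChIP tags ranged from 2436208 to 3668143 in sham libraries and from 4812579 to 17960510 in stimulated libraries, so every stimulated library was deeper. The input held 5241067 filtered tags for the sham lists and 33279049 for the stimulated lists. List length did not follow depth: the deepest library, of stimulated rat 1, gave a shorter list than any sham library. In stimulated rat 3, filtering removed 78.3% of the ChIP tags. Stimulated rats 1 and 3 had only 9331 and 2692 distinct peak intervals on these chromosomes, against 108471 and 64033 in stimulated rats 2 and 4. The sham lists held 31855, 13891 and 12051. Absence in stimulated animals therefore rested on stimulated rats 2 and 4: without rats 1 and 3 the number of sham-only regions was 1414 in place of 1411. A deposited list holds called peaks only, so a stimulated rat has no value in these regions, and its signal there may lie anywhere below its calling limit. Intervals on shares below are 95% Clopper-Pearson intervals and cover counting error only.

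Most MBD3 regions that recurred in sham rats also had a peak after stimulation, and the sham-only regions were the minority. A peak in at least 2 sham rats was found in 7520 regions, and 1411 of them (18.8%, interval 17.9 to 19.7%) had no stimulated peak. The other 6109 are called kept regions here. Stimulated rat 2 had a peak in 5641 of the 7520 regions and stimulated rat 4 in 4424 (58.8%). For stimulated rat 1 the number was 20 (0.266%) and for stimulated rat 3 it was 121 (1.61%). Over all 176202 regions, stimulated rats 1 to 4 had a peak in 5.29%, 61.4%, 1.52% and 36.1%. The share in recurrent sham regions was thus below the share over all regions for rat 1, close to it for rat 3 and above it for rats 2 and 4, with no test made. All regions include those formed by each rat's own peaks, so the share over all regions depends on the length of that rat's list. Of regions with a peak in all 3 sham rats, 3.03% (48 of 1583) lacked a stimulated peak. The share was 23.0% (1363 of 5937) for regions with exactly 2 sham rats and 51.9% (21068 of 40631) for regions with exactly 1. The share without a stimulated peak was smaller the more sham rats carried a peak, by counts that the rule itself fixes.

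Pairs that included sham rat 1, which had the longest sham list, supplied most sham-only regions. Sham rats 1 and 2 alone shared 685 of them (48.5%), sham rats 1 and 3 alone 507 (35.9%), sham rats 2 and 3 alone 171 (12.1%), and all 3 rats 48 (3.40%). Sham-only peaks made up 3.89% of the intervals of sham rat 1, 6.51% of sham rat 2 and 6.02% of sham rat 3. The count depended on single animals. When a sham rat was left out and both others had to carry the peak, the count was 221 (sham rat 1 left out), 555 (sham rat 2) and 733 (sham rat 3). Without stimulated rat 2 it was 3092, and without stimulated rat 4 it was 1880. The 48 regions of all 3 sham rats became 245 without stimulated rat 2 and 73 without stimulated rat 4.

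The sham-only peaks stood on few tags. Median pileup, the number of extended tags over the summit, was 5 in each of sham rats 1 to 3. In kept regions it was 7, 6 and 6 in the same rats. Regions with a peak in exactly 1 sham rat and no stimulated rat also had a median of 5 in each. In 1224 sham-only regions (86.7%) no sham rat had more than 7 tags. The highest pileups were 29, 16 and 15 tags in sham rats 1 to 3, against 175, 165 and 128 in kept regions. Since absence in the stimulated lists helped to choose the regions, these strengths are a description without a test.

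The share of recurrent sham regions without a stimulated peak was lower at each higher class of pileup, as the plot by highest sham pileup shows. Where the taller sham peak had 3 to 5 tags, 34.9% of recurrent regions (596 of 1710) were sham-only. At 6 to 7 tags the share was 21.7%, at 8 to 10 tags 9.66% and at 11 to 15 tags 2.85%. At 16 tags or more it was 1.63% (10 of 613, interval 0.785 to 2.98%). In the tallest peaks of those 10 regions the local background was 5.92 times the genome-wide background in the median and up to 14.3 times.

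**Figure D1:**
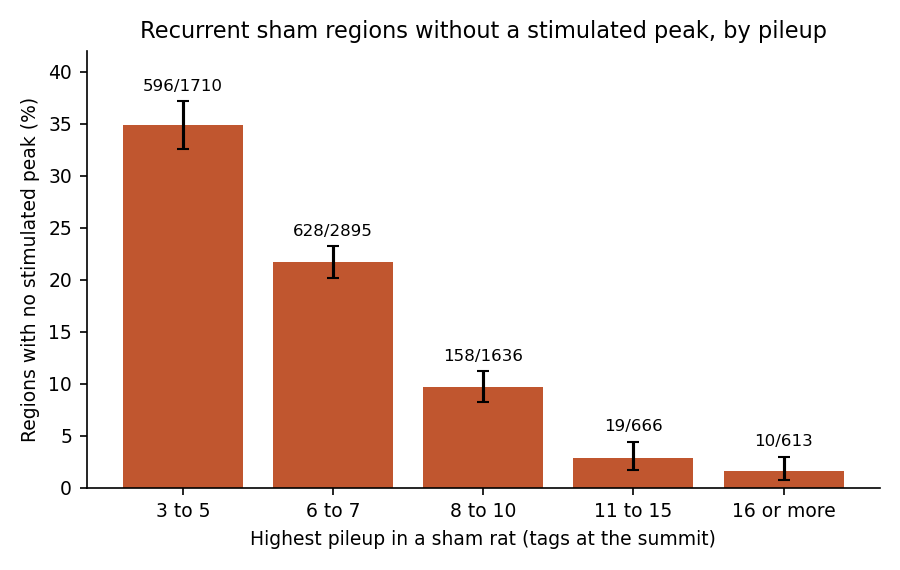
Share of recurrent sham regions (peak in at least 2 sham rats) with no peak in any stimulated rat, in percent, by the highest pileup among the sham peaks of the region. Bars give shares with 95% Clopper-Pearson intervals, and the labels give sham-only over all recurrent regions. The share goes from 34.9% at 3 to 5 tags to 1.63% at 16 tags or more.

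Statistical strength gave a similar order, with its maximum in the second class. With the lowest −log10 q among the sham peaks between 1 and 2, 389 of 2052 recurrent regions were sham-only, and between 2 and 3 the share was 22.3% (597 of 2680). It was 19.7% between 3 and 4, 15.5% between 4 and 5, and 8.47% between 5 and 7. Between 7 and 10 it was 1.53% (2 of 131). None of the 154 regions at 10 or above was sham-only (upper limit 2.37%). Within the lists, 6.94%, 3.43% and 2.75% of the sham-only peaks of sham rats 1 to 3 lay above the 90th percentile of −log10 q. For kept regions these shares were 25.5%, 17.1% and 13.9%. With many tied values, 9.62%, 7.13% and 6.91% of the whole lists lay above that percentile.

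Fold enrichment, the authors' ratio of pileup to local background with 1 added to each, differed less than pileup. The median in sham-only regions was 4.64, 4.93 and 5.02 in sham rats 1 to 3. Kept regions had medians of 5.32, 4.93 and 5.02, so the medians were equal in sham rats 2 and 3. The upper end differed: the 90th percentile was 6.18, 5.87 and 5.86 in sham-only regions and 7.74, 7.39 and 6.83 in kept regions. Regions with a peak in 1 sham rat and no stimulated rat had medians of 4.64, 4.86 and 5.02, close to those of sham-only regions.

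**Figure D2:**
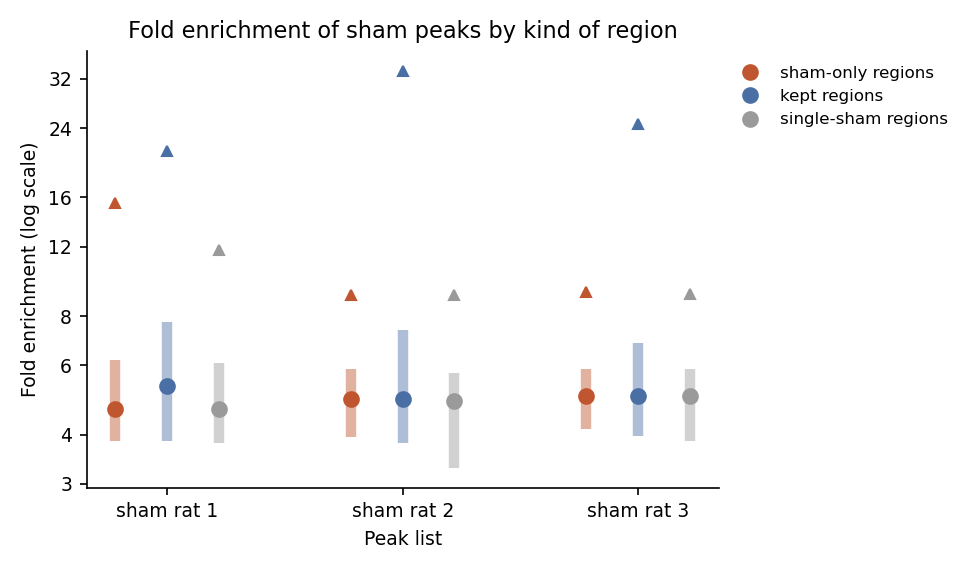
Fold enrichment (log axis) of the peaks of each sham rat in sham-only, kept and single-sham regions. Circles are medians, bars run from the 10th to the 90th percentile and triangles mark the highest peak. Medians lie between 4.64 and 5.32, while the highest peaks of kept regions (21.1, 33.6 and 24.6) exceed those of sham-only regions (15.5, 9.03 and 9.20).

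The lowest fold that was called at the genome-wide background is given for each list. It was 3.09, 3.28 and 3.35 in sham rats 1 to 3 and 3.27, 3.09, 3.61 and 3.004 in stimulated rats 1 to 4. These values correspond to 3 tags in each sham list and to 7, 4, 4 and 5 tags in the stimulated lists. Because 1 is added to both terms, the same ratio of tags gives a lower fold in a shallower library. These limits therefore do not show whether a sham-only peak could have been called in a stimulated list.

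Just inside and just outside the rule the median −log10 q of the sham peaks was the same in each sham rat. The share of stronger peaks differed from that in regions with 1 sham and no stimulated rat. In regions of exactly 2 sham and no stimulated rats, the median −log10 q was 2.93, 3.21 and 3.41 in sham rats 1 to 3. It took the same 3 values in regions of exactly 1 sham rat and no stimulated rat. The same 3 values were found again in the 2145 regions with at least 2 sham rats and exactly 1 stimulated rat. Each is the value of a peak of 5 tags at the genome-wide background of its list, so many peaks are tied there. A −log10 q of at least 3 was found in 39.6%, 66.7% and 69.6% of sham-only peaks in sham rats 1 to 3. For single-sham regions, with 1 sham and no stimulated rat, the shares were 31.1%, 52.7% and 58.1%. The tied value lies below 3 in sham rat 1 and above 3 in sham rats 2 and 3, so these shares compare only within a rat. Such shares are not given for the 2145 regions with exactly 1 stimulated rat. In 1678 of those 2145 the stimulated rat was rat 2, with a median fold of 5.33 and 9 tags. In 464 it was rat 4, with a median fold of 4.99 and 9 tags, and in 3 it was rat 3.

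Peaks in a rat that took no part in choosing the regions were counted next. For each rat in turn, regions of the 7-list merge were chosen by the peaks of the other 6 rats alone. The rat left out could still affect where regions were joined: merging without it gave 221 candidates in place of 219 for sham rat 1 and 3092 in place of 3089 for stimulated rat 2. Regions with peaks in both other sham rats and in no stimulated rat were called in sham rat 1 in 21.9% of cases (48 of 219, interval 16.6 to 28.0%). The share was 8.65% (48 of 555) for sham rat 2 and 6.55% (48 of 733) for sham rat 3. Regions with peaks in both other sham rats and in at least 1 stimulated rat were called in 74.5%, 45.1% and 41.3% of cases. Regions with a peak in only 1 of the other sham rats and in no stimulated rat were called in 12.7%, 4.96% and 3.72%. In each sham rat the share for sham-only candidates thus lay above that for single-sham regions and below that for kept regions. The 48 sham-only regions called are the same each time, those with a peak in all 3 sham rats. The 1535 kept regions called are also the same each time, so the orders in the 3 rats are not independent. No test was made.

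A stimulated rat that took no part in the choice often had a peak in the candidates. Regions with at least 2 sham rats and none of the other 3 stimulated rats were called in stimulated rat 2 in 54.3% of cases (1678 of 3089, interval 52.5 to 56.1%). In stimulated rat 4 the share was 24.7% (464 of 1875, interval 22.8 to 26.8%). It was 0.212% (3 of 1414) in stimulated rat 3. None of 1411 was called in stimulated rat 1, which allows a share of up to 0.261%. In regions with a peak in at least 1 other stimulated rat the shares were 89.4%, 70.2%, 1.93% and 0.327% for stimulated rats 2, 4, 3 and 1. Stimulated rats 2 and 4 have the longest lists of all 7 animals, and they were also called most often among the candidates.

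**Figure D3:**
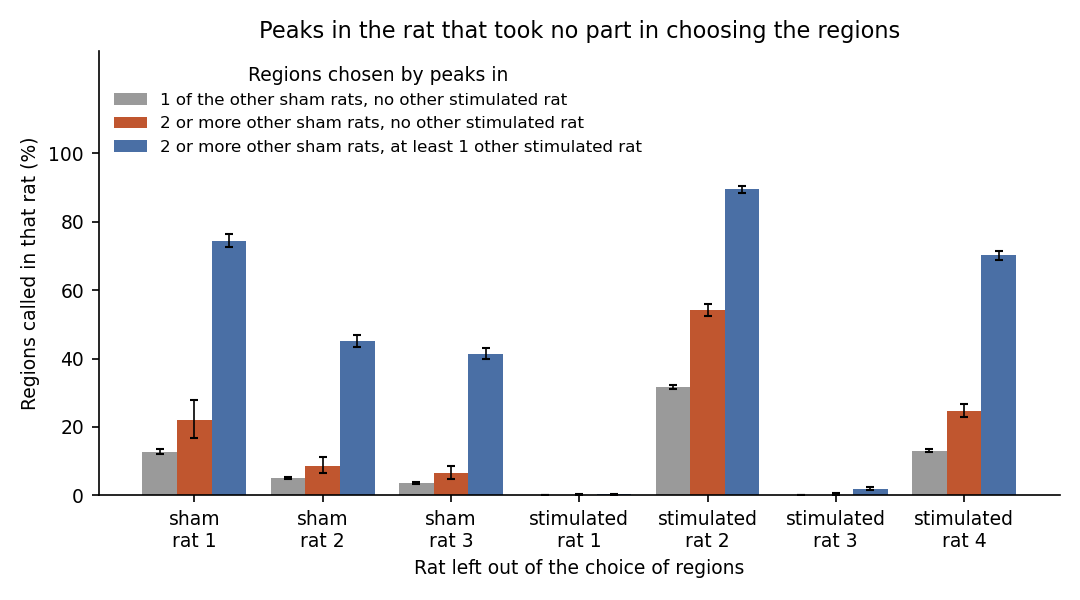
Share of regions called in the rat named on the horizontal axis, in percent, for regions chosen without that rat, with 95% Clopper-Pearson intervals. Grey bars are regions with 1 other sham rat and no other stimulated rat, orange bars those with at least 2 other sham rats and no other stimulated rat, and blue bars those that also have another stimulated rat. Orange bars reach 21.9% in sham rat 1 and 54.3% in stimulated rat 2, and blue bars are higher in every rat.

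Leaving out 1 sham and 1 stimulated rat together allowed both to be read in the same candidates. Over the 12 pairs, the share called in the sham rat minus that called in the stimulated rat averaged −5.42 percentage points, with an SD of 21.8. The pairs share animals, and no test was made. With stimulated rat 2 left out, the candidates were called in sham rats 1, 2 and 3 in 40.2%, 18.6% and 14.9% of cases and in stimulated rat 2 in 64.2%, 58.0% and 55.5%. With stimulated rat 1 left out, the sham shares were 21.9%, 8.65% and 6.55%, and that of stimulated rat 1 was 0 each time. The sign of the difference thus followed the stimulated animal. The mean was 27.1 when every list was shortened to its 2692 strongest intervals by −log10 p, with ties taken in order of chromosome name. It was −23.1 when stimulated rats 1 and 3 were left out.

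The lower recurrence of sham-only candidates was also seen among weak peaks. Where the choosing sham peaks had at most 7 tags, sham-only candidates were called in the sham rat left out in 20.3% (39 of 192), 8.90% (43 of 483) and 6.02% (38 of 631) of cases. Kept candidates at the same limit were called in 59.5%, 26.6% (440 of 1652) and 424 of 1767 cases for sham rats 1 to 3. Stimulated rats 2 and 4 were called in 51.3% and 23.5% of the sham-only candidates at this limit, and in 81.9% and 57.1% of the kept ones.

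Median width was smaller in sham-only than in kept regions in each sham rat. The medians were 154, 150 and 150 bp in sham rats 1 to 3, where 150 bp is the narrowest interval in any list. In single-sham regions the median was 150 bp in each sham rat. In kept regions it was 198, 176 and 169 bp. The difference between sham-only and kept regions averaged −29.7 ± 12.9 bp (SD, n = 3). A wider interval has more bases to share with a stimulated peak, so this difference is tied to the rule and is given without a test. Between peaks of the same pileup the difference was −5.07 bp, and with equal lists, cut to the 2692 strongest intervals each, it was −84.3 bp. More than 1 summit was found in 3, 1 and 0 sham-only peaks of sham rats 1 to 3, and in 286, 166 and 111 peaks of kept regions.

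Local background was also lower at sham-only peaks than at peaks of kept regions in each sham rat. It was at the genome-wide level for 72.9%, 71.8% and 73.4% of sham-only peaks and for 40.9%, 37.5% and 39.5% of peaks in kept regions. For single-sham regions the shares were 71.2%, 67.3% and 58.3%, nearer to those of sham-only regions. The median log2 background in sham-only regions was −1.76, −2.20 and −2.36 in sham rats 1 to 3, and in kept regions −1.57, −1.80 and −2.08. The mean difference was −0.29 ± 0.11 (log2, SD, n = 3). Between peaks of the same pileup it was −0.08, and with equal lists −2.71. Without sham rat 1, where the kept regions are those of sham rats 2 and 3 alone, it was −1.04. The 3 sham lists share 1 input library, so their background estimates are not independent. Peak calling uses this background, so the difference is a description as well.

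Where 2 sham rats had a peak in a sham-only region, the peaks lay close together. The median distance between summits was 24 bp for sham rats 1 and 2, 25 bp for sham rats 1 and 3 and 27 bp for sham rats 2 and 3. In kept regions it was 32, 31 and 31.5 bp. Peaks were joined only where they shared bases, which limits these distances, and kept peaks were wider. The distances are therefore tied to the rule and to width, and the difference was not tested. Summits within 50 bp of each other made up 78.2%, 80.0% and 79.0% of sham-only regions. The peaks overlapped by at least 50% of the shorter one in 94.0%, 95.5% and 95.4%. In 1 region of all 3 sham rats, 2 of the peaks were joined only by the third. Sham-only regions had a median width of 193 bp, and 4 were wider than 500 bp. Together they covered 0.291 Mb.

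The 10 sham-only regions of all 3 sham rats with the highest lowest −log10 q had 5 to 9 tags per rat. First was the region on chromosome 14 at 92588852 to 92589024, with −log10 q of 5.20, 5.83 and 4.60 and 7, 7 and 6 tags in sham rats 1 to 3. All 3 peaks stood at the genome-wide background, and the nearest stimulated peak, in rat 4, was 21441 bp away. The region on chromosome 15 at 63274388 to 63274804 had 7, 6 and 6 tags, and that on chromosome 2 at 83741501 to 83741712 had 6 tags in each rat. Their nearest stimulated peaks, both of rat 4, were 7928 and 3755 bp away.

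In this set, 2 regions had a stimulated peak within 1000 bp. The region on chromosome 3 at 43419206 to 43419400 had fold enrichments of 5.32, 7.30 and 7.44 in sham rats 1 to 3, and stimulated rat 4 had a peak 667 bp away. The region on chromosome 1 at 154098498 to 154098841 had fold enrichments of 6.18, 8.21 and 5.02, with a peak of stimulated rat 2 at 609 bp. By contrast, the region on chromosome 2 at 134321251 to 134321469, with 8, 9 and 5 tags, was 56263 bp from the nearest stimulated peak. The other 4 lay on chromosome 15 at 66225455 to 66225660, chromosome 4 at 214666482 to 214666724, chromosome 9 at 29443767 to 29443987 and chromosome 18 at 37697819 to 37698037. Their fold enrichments ran from 4.93 to 6.95.

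Regions of exactly 2 sham rats reached higher values. Over all such regions, though, median fold enrichment was 4.64, 4.93 and 5.02 in sham rats 1 to 3. Over all regions of 3 sham rats it was 4.64, 5.13 and 5.02. The 10 named here were ranked out of 1363 by the lower of 2 values, against 48 and the lowest of 3, so the 2 rankings are not alike. First was chromosome 7 at 22549675 to 22550299, with 14 tags in both sham rats 1 and 2, fold enrichments of 7.32 and 8.44, and a local background 3.57 times the genome-wide one in both. Next was chromosome 3 at 149742379 to 149742563, with 10 and 8 tags and fold enrichments of 8.50 and 7.39 in sham rats 1 and 2 at the genome-wide background. The nearest stimulated peak was 41886 bp away. These are the 2 sham-only regions with a −log10 q of at least 7 in every sham peak.

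Sham rat 3 took part in 6 of the other 8. On chromosome 13 at 16844597 to 16844773 fold enrichment was 6.95 in sham rat 1 and 9.20 in sham rat 3, with 8 and 10 tags. On chromosome 3 at 39133443 to 39133651 it was 9.27 in sham rat 1 and 6.69 in sham rat 3. On the X chromosome at 98432962 to 98433211 it was 6.95 and 7.39 in sham rats 1 and 2, and stimulated rat 2 had a peak 758 bp away. The region on chromosome 20 at 23145807 to 23146173, with 8.50 and 6.69 in sham rats 1 and 3, was 385 bp from a peak of stimulated rat 2. The others were on chromosome 2 at 120678730 to 120678917 and 124585819 to 124585994, chromosome 11 at 2797742 to 2797960 and chromosome 5 at 96036833 to 96037081.

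**Figure D4:**
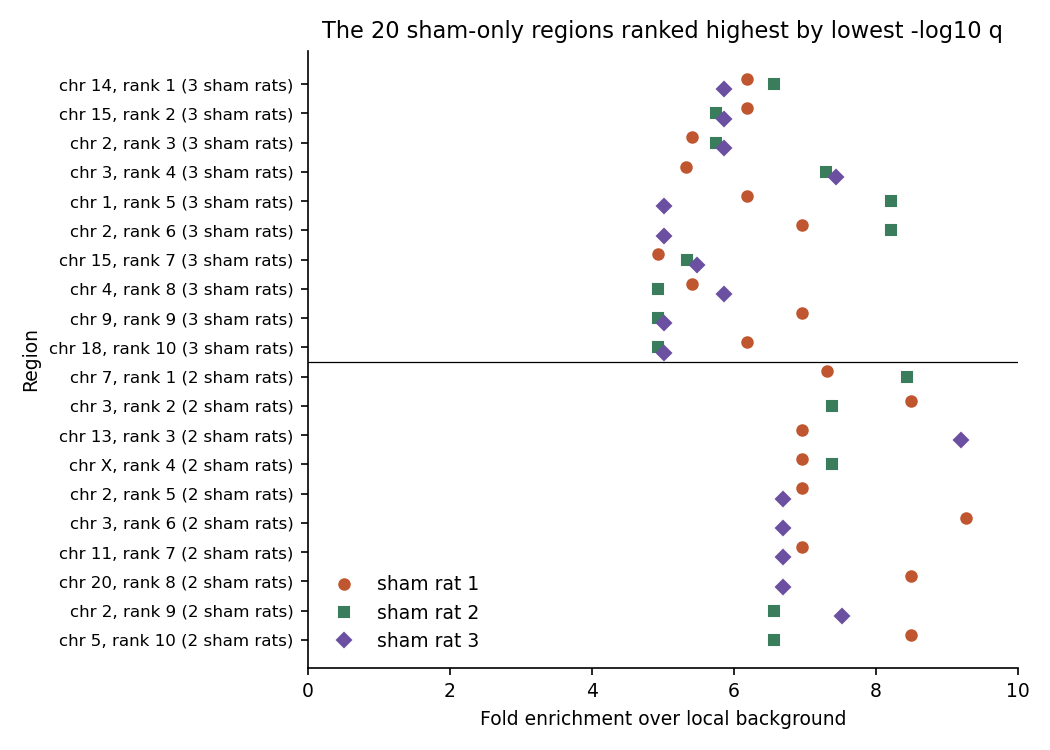
Fold enrichment in each sham rat with a peak, for the 20 sham-only regions ranked highest by the lowest −log10 q, 10 with peaks in 3 sham rats above the line and 10 with peaks in 2 below it. Each symbol is 1 peak of 1 rat. The upper regions lie between 4.93 and 8.21, and the lower ones between 6.57 and 9.27.

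The widest sham-only regions stood on raised background. The region on chromosome 17 at 91106623 to 91107434, 812 bp wide, had 29 tags in sham rat 1 and 14 in sham rat 2, with local backgrounds 14.3 and 11.9 times the genome-wide one. Fold enrichment there was 5.77 and 4.17. The chromosome 7 region named above was next at 625 bp, followed by chromosome 5 at 29483127 to 29483677 (551 bp), where fold enrichment was 4.17, 4.42 and 5.93 in sham rats 1 to 3. The highest fold enrichment of any sham-only peak, 15.5 with 21 tags, was in sham rat 1 on chromosome 16 at 21716142 to 21716463. This region was singled out after its values were seen. Sham rat 2 had 8 tags and 5.93-fold enrichment there, and stimulated rat 4 had a peak 895 bp away.

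Stimulated peaks lay near sham-only regions about as often as near single-sham regions, a comparison that was not tested. A peak of any stimulated rat lay within 1000 bp of 189 sham-only regions (13.4%) and within 10 kb of 995 (70.5%). For single-sham regions the shares were 12.0% and 68.7%. The median distance was 5501 bp for sham-only and 5726.5 bp for single-sham regions. The nearest case was chromosome 1 at 134430999 to 134431371, 6 bp from a peak of stimulated rat 2. There sham rat 1 had 9 tags and 7.73-fold enrichment, and sham rat 3 had 5 tags and 4.96-fold. The farthest was chromosome 2 at 253498054 to 253498306, 458756 bp from a stimulated peak, with 4.64- and 5.75-fold enrichment in sham rats 1 and 2. With no stimulated peak allowed within 1000 bp, 1222 sham-only regions were counted.

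Sham-only regions were spread over all 21 chromosomes. Per 10 Mb up to the last peak, chromosome 15 held 7.25 of them, chromosome 16 6.11, chromosome 4 3.79 and the X chromosome 1.10, against 4.86 over all chromosomes. Other sets were also sparsest on X, with 2.91 kept and 31.8 single-sham regions per 10 Mb. Regions of at least 2 stimulated and no sham rats had 6.99 there. On chromosomes 15, 16 and 4, kept regions had 26.1, 26.0 and 14.9, and single-sham regions 80.1, 90.8 and 60.9. As a share of recurrent sham regions, sham-only regions ranged from 15.6% on chromosome 20 (26 of 167) to 27.4% on X (17 of 62, interval 16.9 to 40.2%). On chromosome 1 the share was 15.8% (143 of 905, interval 13.5 to 18.3%), the only chromosome whose interval did not reach the 18.8% of the whole. The differences between the 21 chromosomes were not tested, and the 21 intervals were not adjusted for their number, so 1 that misses the whole may arise from counting error.

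**Figure D5:**
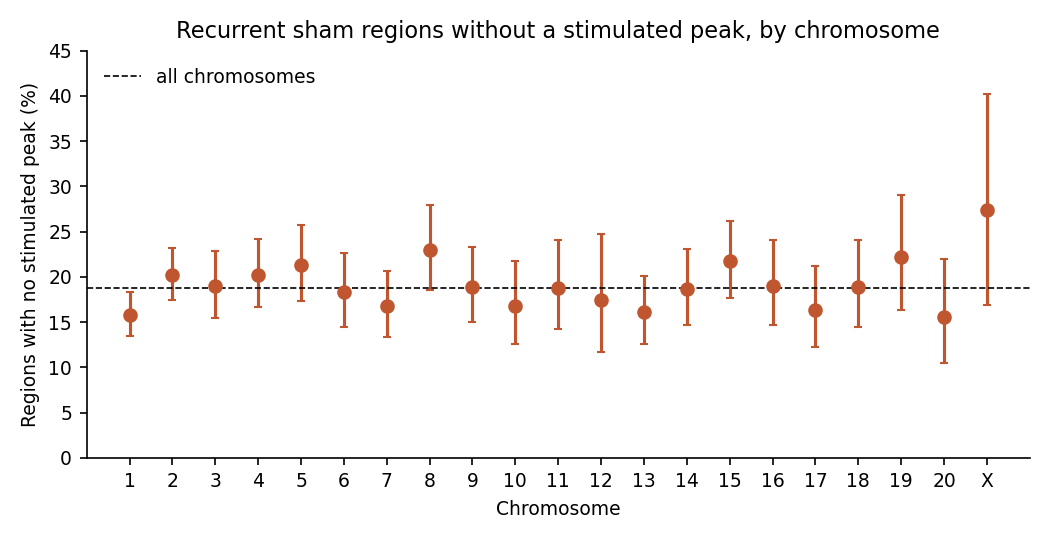
Share of recurrent sham regions with no stimulated peak, in percent, on each chromosome, with 95% Clopper-Pearson intervals. The dashed line marks 18.8%, the share over all chromosomes. The points lie between 15.6% and 27.4%, and the interval of chromosome 1 ends below the line.

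Chromosomes 10, 12, 19 and 20 held 9.71% of sham-only regions (137 of 1411, interval 8.21 to 11.4%). They held 10.3% of kept regions, a difference of −0.55 percentage points, and 10.3% lies inside the interval of the sham-only share. Of regions with at least 2 stimulated and no sham rats, 13.0% were on these chromosomes, and of single-sham regions 9.16%.

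Most sham-only regions lay more than 100 kb from the next. No spacing expected from their density was computed, so the gaps do not show whether the regions cluster. The median gap between neighbours was 1123 kb, 29 of 1390 gaps were within 10 kb, and 234 regions (16.6%) were within 100 kb of another. The most regions in 1 chain of such gaps was 5, reached on chromosome 2 between 210018133 and 210089177 and on chromosome 16 between 21647027 and 21833939. The chromosome 16 stretch also held 9 kept regions and 14 single-sham regions, with 27, 18 and 3 peaks in sham rats 1 to 3. Stimulated rats 1 to 4 had 6, 17, 0 and 16 peaks in it. The chromosome 2 stretch held no kept region, with 10, 5 and 3 peaks in the sham rats and 5, 1, 0 and 2 in the stimulated rats.

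Of the 5 chains with the most regions, the one of shortest span was on chromosome 3 between 140522773 and 140529714, where 4 sham-only regions fell within 6.94 kb. Sham rats 1 to 3 had 5, 7 and 4 peaks there, and stimulated rats 1 to 4 had 0, 5, 0 and 1. On chromosome 17 between 91106242 and 91191780, which includes the widest region, 4 sham-only regions lay beside 5 regions recurrent in stimulated rats alone. All 7 rats had peaks in that stretch. A chain of 3 on chromosome 1 between 154003158 and 154098841 ended at the region of all 3 sham rats named above.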

How the data were processed

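MBD3 peak lists came from 7 rats, and the treatment label put 3 in the sham and 4 in the stimulated group. Per the submitters' processing notes, the tools included MACS2 2.1.0.20141030, Bowtie 1.0.0 and cutadapt 1.7.1. Per the file headers, the authors called peaks in each rat against the input library of its group, with tags extended to 150 bp, 1 tag kept per position and a q threshold of 0.1. A genome build is not given in these sources. In the deposited lists each peak has a pileup (a signal in tags), a fold enrichment (a ratio), −log10 p and −log10 q values, and a length in bp. Pileups are not scaled between libraries.

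Each distinct interval was used once, with the summit of the highest −log10 p. Local background was computed as (pileup + 1) / fold enrichment − 1, and counted as genome-wide within 1% of the list's lowest value. Coordinates are those of the lists. Peaks extend past the last gene of the gene table at hand (GRCr8) on 13 of 21 chromosomes, so no gene or sequence was assigned. Shares have 95% Clopper-Pearson intervals. Width and background were compared within each sham rat. The sign-flip test set for them is not reported, because the sets compared are not independent of either measure. Python 3.11.15, pandas 2.3.3 and scipy 1.17.1 were used, and merging was tested on simulated lists.

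The regions, the sets compared and the rules for named regions were chosen with earlier results of these data known. Named regions are the 10 of 3 and the 10 of 2 sham rats with the highest lowest −log10 q, the 3 widest, the 5 largest chains with gaps of at most 100 kb, and those nearest to and farthest from a stimulated peak. Other settings, 17 in number, were stricter peaks, equal lists, other overlap rules, wide peaks or X left out, and rats left out. For equal lists, intervals were ordered by −log10 p, and ties by chromosome name and start. Where ties fell at the cut, the intervals retained thus depended on chromosome name, which bears on every equal-list value. The comparison at equal pileup, the limit of 7 tags, the classes of strength and the shares with a single rat left out were added after seeing the data.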

Additional observations from a re-analysis of the deposited data

How the results depend on the processing

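Requiring a −log10 q of 3 or more in all lists changed the 1411 sham-only regions to 628. The count was 441 with that threshold in the sham lists alone, and 365 with equal lists. The 48 regions of all 3 sham rats became 24, 11 and, at 4-fold enrichment or more, 104. Leaving out 1 rat gave 221 to 3092 sham-only regions. Regions of every sham rat numbered 48 to 245 without 1 stimulated rat and up to 733 without 1 sham rat, where 2 sham rats had to carry the peak. The share called in the sham minus the stimulated rat left out was 27.1 percentage points with equal lists, 6.58 at 4-fold enrichment or more, −12.3 with a −log10 q of 3 or more in the sham lists alone, −23.1 without stimulated rats 1 and 3, and −11.3 to 9.79 with 1 rat left out. The cause was not tested. The share on chromosomes 10, 12, 19 and 20, sham-only minus kept, was 1.36 with equal lists. Ties at that cut were taken in order of chromosome name, so this value may depend on that order. The difference was 0.926 with a −log10 q of 3 or more in the sham lists alone, and −4.13 to −0.36 with 1 rat left out. Differences in width and local background kept their sign in every alternative run, but not their size. With equal lists they were −84.3 bp and −2.71 (log2). Leaving out 1 rat gave −47.8 to −29.5 bp and −1.04 to −0.29 (log2). No paired analysis was possible because each rat has its own number and no number is shared between groups.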

Other observations

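The distance from a sham-only region to the nearest peak of the sham rat without one there was also measured. The same shares were not computed for other places, so these do not show whether such peaks were rarer near sham-only regions. Of the 1363 regions with exactly 2 sham rats, a peak of the sham rat without one lay within 1000 bp in 5 of 171 cases for sham rat 1, 6 of 507 for sham rat 2 and 21 of 685 for sham rat 3. The median distances were 37806, 63525 and 63344 bp. The order of fold enrichment was weakly shared between sham rats. Spearman's rho of fold enrichment across sham-only regions (a description over regions, not over animals) was 0.15 for sham rats 1 and 2 (733 regions), 0.08 for sham rats 1 and 3 (555 regions) and 0.13 for sham rats 2 and 3 (219 regions). In kept regions it was 0.31, 0.22 and 0.26. Most of these peaks have few tags and 1 shared input, so many values are tied.

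The X chromosome made up 1.37%, 1.35% and 1.19% of the intervals of sham rats 1 to 3, and 0.707%, 1.06%, 0.632% and 0.69% of those of stimulated rats 1 to 4. Of sham-only regions it held 1.20%, and of single-sham regions 2.33%.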
